A study of Mus musculus with 6 samples.

Results

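The 40 genes described here encode the enzymes and the main regulators of cholesterol and fatty acid synthesis in mouse retinal ganglion cells (RGCs), which send the axons of the optic nerve. They are 7 enzymes of the mevalonate steps, 11 of the squalene and sterol steps, 6 genes of pathway control and sterol transport, 3 enzymes of fatty acid synthesis, 4 desaturases and 9 enzymes of fatty acid elongation. The genes were chosen by name, with earlier results of these data known. All 40 were found among the 10361 gene names of the expression table, and all 40 passed the filter on low values, which asked for a 6-library mean of 1 FPKM or more.

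Poly-A RNA was sequenced from 6 libraries of wild-type C57/6NCrl mice, 2 for each of 3 groups. In the adult control group RGCs were infected with AAV2 for mCherry and a scramble shRNA mimic, and in the adult miR-1247 group with AAV2 for a miR-1247-5p mimic, a microRNA. The E18 group was RGCs of embryonic day 18 that were untreated and carried no vector. RGCs of all 3 groups were purified with an antibody to Thy1, a surface protein of these neurons, and only adult cells were then sorted for mCherry. Each adult condition used 10 retinas and about 5000 sorted cells, whereas about 50000 cells were taken at E18. Age, vector, sorting and cell number therefore cannot be told apart between E18 and adult libraries. The age of the adult mice is given no more closely than adult. Nothing states that the 2 libraries of a group came from separate animals, so p-values measure only how these libraries spread, and that spread may be technical.

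Cholesterol and most fatty acids are made from acetyl-CoA. Neurons in the adult nervous system are thought to take much of their cholesterol from glia, while growing neurons also make their own to build the membrane of axons. When sterol in the endoplasmic reticulum is low, the escort protein SCAP carries the transcription factors SREBP1 and SREBP2 to the Golgi, where they are cleaved and released. The INSIG proteins hold SCAP back when sterol is high. SREBP2 acts mainly on genes of cholesterol synthesis and SREBP1 mainly on genes of fatty acid synthesis, both together with factors such as NF-Y, which binds CCAAT boxes.

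Levels are in FPKM, fragments normalized to transcript length and to mapped reads, which allows levels of different genes to be set side by side. Changes are differences of mean log2(FPKM + 1) with their standard error (log2 fold change ± SE). A gene was called higher or lower at an adjusted p under 0.05 in limma, with Benjamini-Hochberg adjustment over all 9987 rows tested, and "rose" and "fell" are used of called genes only. The table holds no read counts, and library depth is therefore unknown. Total listed FPKM ran from 339224 to 392238 per library. The mitochondrial genome took 4.24% and 4.28% of it at E18, 10.4% and 4.43% in the control libraries and 12.9% and 19.1% in the miR-1247 libraries. All 17 RGC markers were measured. Their summed FPKM was 3754.5 and 3687.5 in control, 2250.4 and 2223 in miR-1247 and 5779.9 and 5758.2 in E18 libraries. The sum hides a split, since at E18 12 of them rose over control and 5 fell. Those that fell were Thy1 (-1.28), Slc17a6 (-1.19), Nrn1 (-1.37), Nefh (-3.87) and Opn4 (-3.21), as log2 fold changes. None of the 8 microglial and none of the 8 vascular markers was analysed here, for want of an entry.

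Some values stand for more than 1 gene. The entry of Fdps also holds Rusc1, that of Msmo1 also holds Cpe, a highly expressed neuronal peptidase, and that of Tm7sf2 also holds Vps51 and Zfpl1, so these 3 values cannot be given to 1 gene. The locus of several other members overlaps a neighbour on the opposite strand, and strand is not kept by the kit named in the protocols. Among those neighbours Tcp1, across from Acat2, rose by 1.0 at E18, Akap9, across from Cyp51, by 1.41, and Ints14, across from Hacd3, by 1.20 on the log2 scale, whereas Ctsb, across from Fdft1, fell by 1.09. Cdc20, a cell cycle gene across from Elovl1, was not analysed here. Rai1 lies across from Srebf1, Ptpn23 across from Scap and Washc5 across from Sqle, and their values are not given. The locus of Hacd2 as listed also spans Mylk, a kinase gene on the same strand, which was not analysed here. How far such neighbours move the members' values was not tested.

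Promoter sequence is shown for members of the 2 synthesis pathways that hold the SREBP element. In the GRCm39 genome the 300 bases before the canonical GENCODE start were searched on both strands for the SREBP element TCACNCCAC, the CCAAT box and the GC box GGGCGG. The SREBP element was found in the promoters of Hmgcs1, Fasn and Acaca, 3 of the 40 (7.5%), beside 1.15% of 9847 promoters of genes tested. This count depends on the start site: in the RefSeq promoter table (GRCm38.p6), which places other starts, 33 members matched and 1 of them, Hmgcs1, held the element, beside 1.24% of 32851 promoters. Fasn and Acaca were matched there without it. A CCAAT box was found in 24 of 40 (60%) beside 39.3%, and in 13 of the 18 cholesterol enzymes. The GC box was found in 22 of 40 (55%) beside 53.0%. The sequences below run 5′ to 3′ on the gene's strand, with the SREBP element and the CCAAT boxes (ATTGG on the other strand) in capitals. For Hmgcs1, the synthase at the entry to the pathway, the stretch chr13:120151682-120151914 (GRCm39, plus strand) holds 1 SREBP element and 3 CCAAT boxes and ends at the first annotated exon.
Hmgcs1: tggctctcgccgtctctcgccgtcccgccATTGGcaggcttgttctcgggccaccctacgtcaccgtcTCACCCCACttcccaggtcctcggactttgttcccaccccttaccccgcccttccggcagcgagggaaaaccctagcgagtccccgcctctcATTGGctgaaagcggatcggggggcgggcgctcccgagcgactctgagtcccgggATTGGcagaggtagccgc
For Fasn and Acaca, the enzymes that build fatty acids, only the 30 bases around the element are shown. The stretches are chr11:120715062-120715091 for Fasn (minus strand, within the first exon of longer annotated transcripts) and chr11:84063840-84063869 for Acaca (plus strand). The Acaca stretch precedes the start of the canonical transcript but lies within the annotated gene, which begins at base 84020476.
Fasn: cgcgcgggcaTCACCCCACcggcggcggcg
Acaca: acaggcacacTCACACCACaccctgggtgc
The element of Fasn has the same letters as that of Hmgcs1, and that of Acaca follows a run of CA repeats. A match is a description of the sequence, and binding was not measured.

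The first comparison sets E18 RGCs beside adult control RGCs. Enzymes of both pathways were higher at E18, all 18 of cholesterol synthesis, the 3 of fatty acid synthesis and the 4 desaturases. Of the 18, Fdps, Msmo1 and Tm7sf2 were measured only in entries shared with other genes. Insig2 and Insig1, which restrain SREBP, were lower. Of the 40 genes 30 rose and 7 fell, while of all rows tested 70.1% were called, 40.2% higher and 29.8% lower. At least 2-fold changes were called in 17 genes upward (20.3% of all rows) and in Insig2 downward (14.4%). Both E18 libraries lay above both control libraries for 30 genes (49% of all rows) and below them for 9 (36.5%). The median log2 fold change was 0.91 over the 40 genes and 0.16 over all rows. Under 4 other scalings of the libraries the median of all rows was 0.02 to 0.09 and that of the 40 genes 0.76 to 0.83, with 29 or 30 of them higher and 8 or 9 lower.

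**Figure D1:**
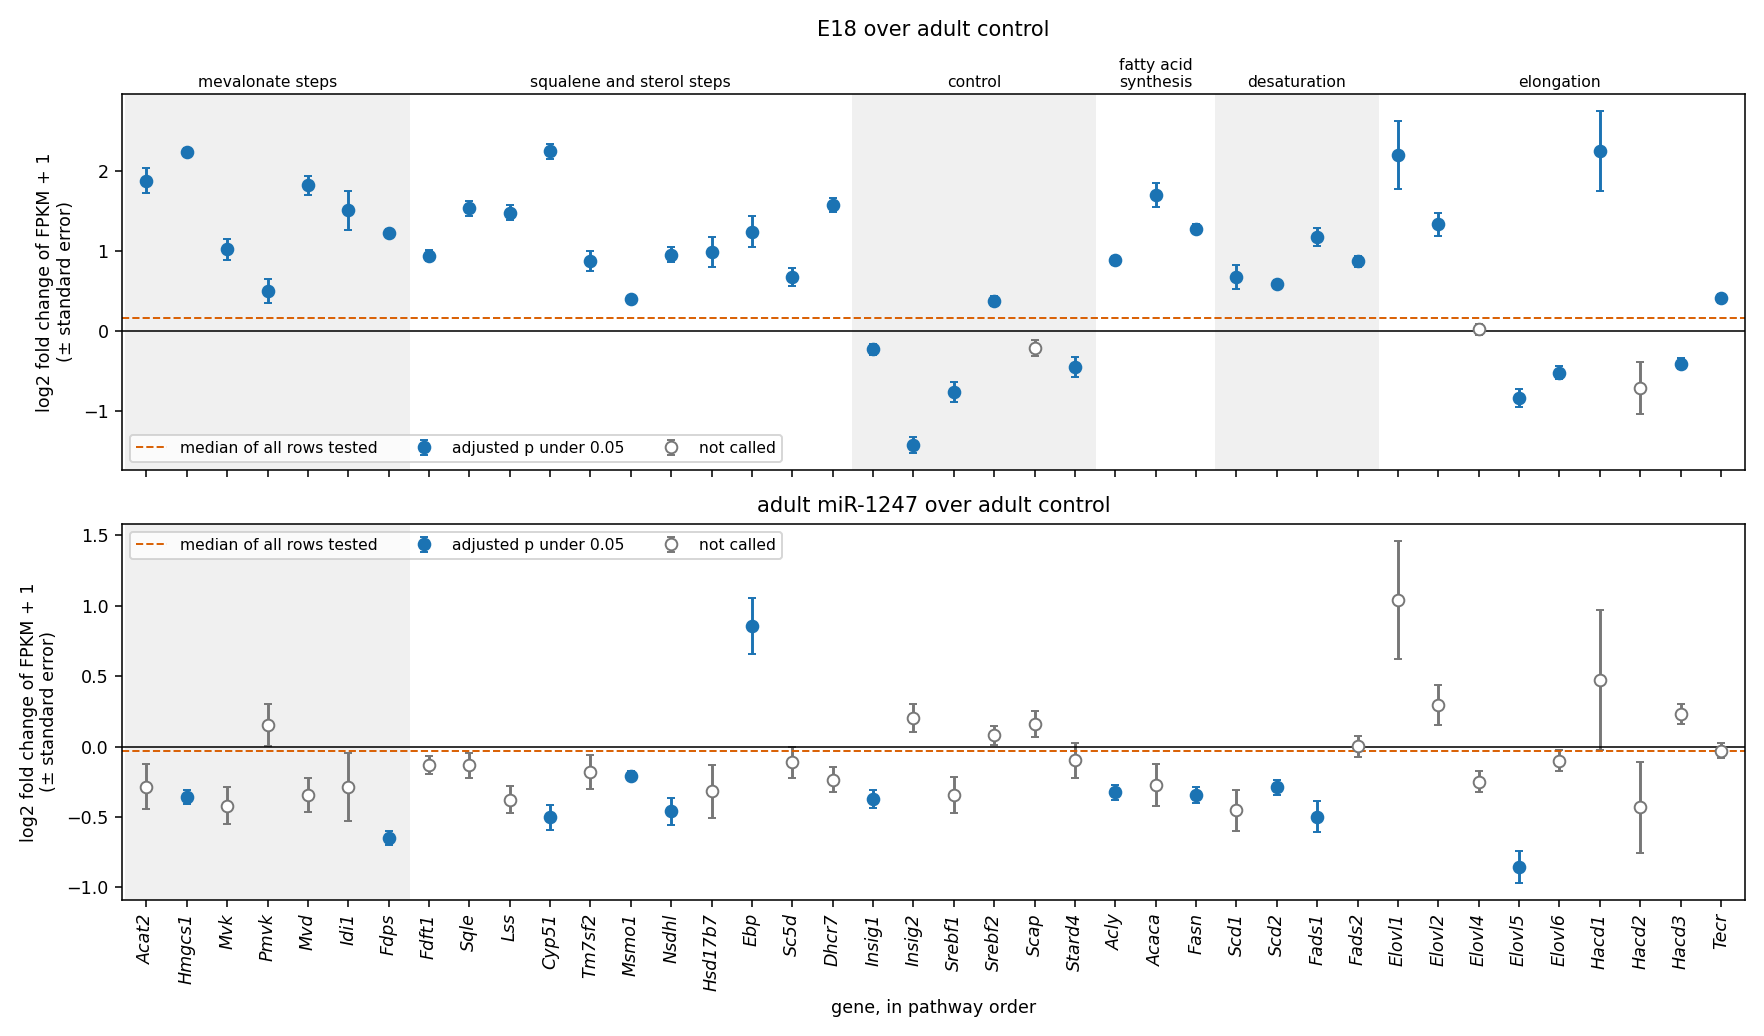
Log2 fold change of FPKM + 1 (± standard error) for the 40 genes in pathway order, E18 over adult control above and adult miR-1247 over adult control below. Filled points were called at an adjusted p under 0.05, open points were not, and the dashed line is the median of all rows tested. In the upper panel all points of the mevalonate, sterol, fatty acid synthesis and desaturation steps lie above that line, and 5 of the 6 control genes lie below 0.

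The mevalonate steps turn acetyl-CoA into the isoprenoid farnesyl diphosphate. All 7 members rose at E18, with a median log2 fold change of 1.504, 6 of them by an entry of their own. Hmgcs1, which makes HMG-CoA, stood at 149 and 158 FPKM in the control libraries, 123 and 116 in the miR-1247 libraries and 725 and 724 at E18. The E18 values lay far above all 4 adult values, and the rise was 4.72-fold in mean FPKM (log2 fold change 2.23 ± 0.05, adjusted p = 3.05e-07 in limma). Ranked by mean level among the 9987 rows, Hmgcs1 moved from place 321 in control to place 32 at E18.

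Acat2, the thiolase that joins the first acetyl-CoA units, was at 33.1 and 25.3 FPKM in control and at 102 and 116 at E18, a log2 fold change of 1.88 ± 0.16. Mvk, the mevalonate kinase, was at 17.0 and 16.9 FPKM in control and 32.2 and 39.0 at E18, a rise of 1.02 ± 0.13. Mvd, the decarboxylase that forms isopentenyl diphosphate, rose from 16.7 and 14.2 to 56.2 and 57.4 FPKM, by 1.82 ± 0.12. For these 3 enzymes the groups did not overlap. Idi1, the isomerase of isopentenyl diphosphate, had the widest spread, at 18.5 and 29.8 FPKM in control and 78.2 and 60.0 at E18 (1.504 ± 0.24). The entry of Fdps, which makes farnesyl diphosphate, was at 105 and 103 FPKM in control and 239 and 247 at E18 (1.22 ± 0.05). Pmvk, the phosphomevalonate kinase, had the smallest rise, 0.50 ± 0.15, with an adjusted p of 0.0226 in limma. Its call was lost under 3 of the 4 other scalings and without control replicate 1 or E18 replicate 2.

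**Figure D2:**
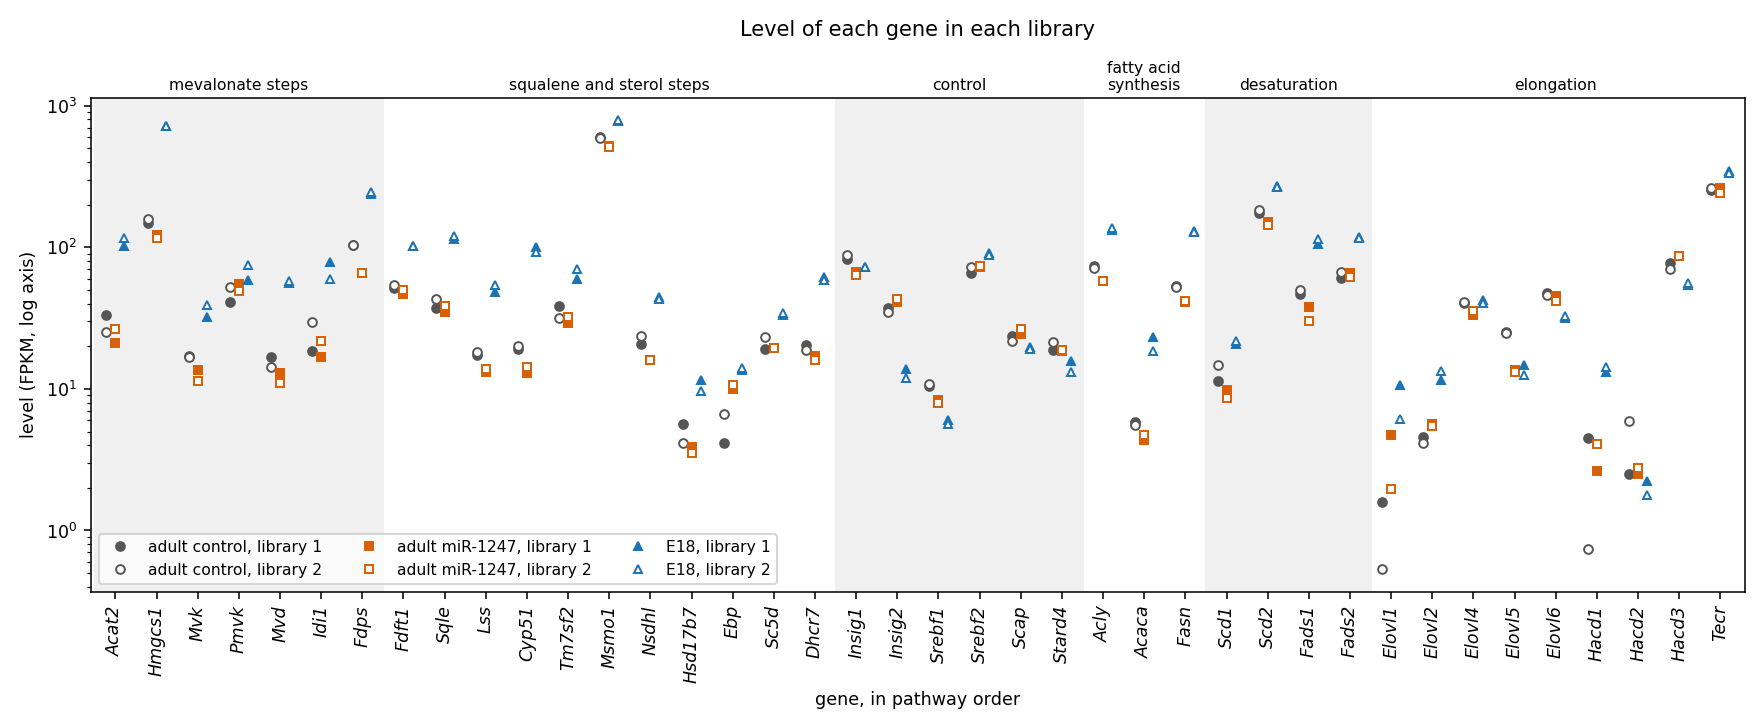
FPKM on a log axis of each gene in each library, genes in pathway order, with a symbol and colour for each group, filled for library 1 and open for library 2. The E18 points of Hmgcs1, at 725 and 724 FPKM, stand above its adult points, at 116 to 158, and the adult points of Elovl1 and Hacd1 are the most scattered.

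Squalene and sterol steps follow, from farnesyl diphosphate to cholesterol. All 11 members rose, with a median of 0.99, 9 of them by an entry of their own. Cyp51, the demethylase of lanosterol, rose most, from 19.1 and 20.1 FPKM in control to 100.2 and 92.6 at E18, a 4.91-fold difference (2.24 ± 0.09, adjusted p = 2.63e-06 in limma). Sqle, the squalene epoxidase and a slow step of the pathway, was at 37.4 and 42.9 FPKM in control and 114 and 121 at E18 (1.53 ± 0.09). Lss, which closes the sterol rings, was at 17.4 and 18.3 FPKM in control and 48.7 and 54.2 at E18, a fold of 2.88. Dhcr7, the reductase of the last step of one branch, rose from 20.6 and 18.7 to 61.9 and 58.5 FPKM, 3.06-fold. In these 4 enzymes every E18 value was more than 2 times every control value.

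Ebp, a sterol isomerase, was at 4.13 and 6.61 FPKM in control and 13.5 and 14.0 at E18 (1.24 ± 0.20), and its 2 control libraries were less alike than those of most enzymes. The other members of the step rose less. Fdft1, the squalene synthase, rose by 0.94, Hsd17b7 by 0.99, Nsdhl by 0.95, both in demethylation of the ring, and Sc5d, a desaturase of the ring, by 0.67. The shared entries of Tm7sf2, a sterol reductase, and Msmo1, a methyl sterol oxidase, rose by 0.87 and 0.40. At 592 to 599 FPKM in control the Msmo1 entry was the highest of the 40, and its level also includes Cpe. The 37 members with an entry of their own had 27 calls higher and 7 lower, with a median of 0.94.

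Summed over members with an entry of their own, the mevalonate steps came to 275 and 297 FPKM in control and 1053 and 1071 at E18. The sterol steps came to 196 and 212 FPKM in control and 531 and 529 at E18. These sums are descriptions, and the first is mostly Hmgcs1.

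**Figure D3:**
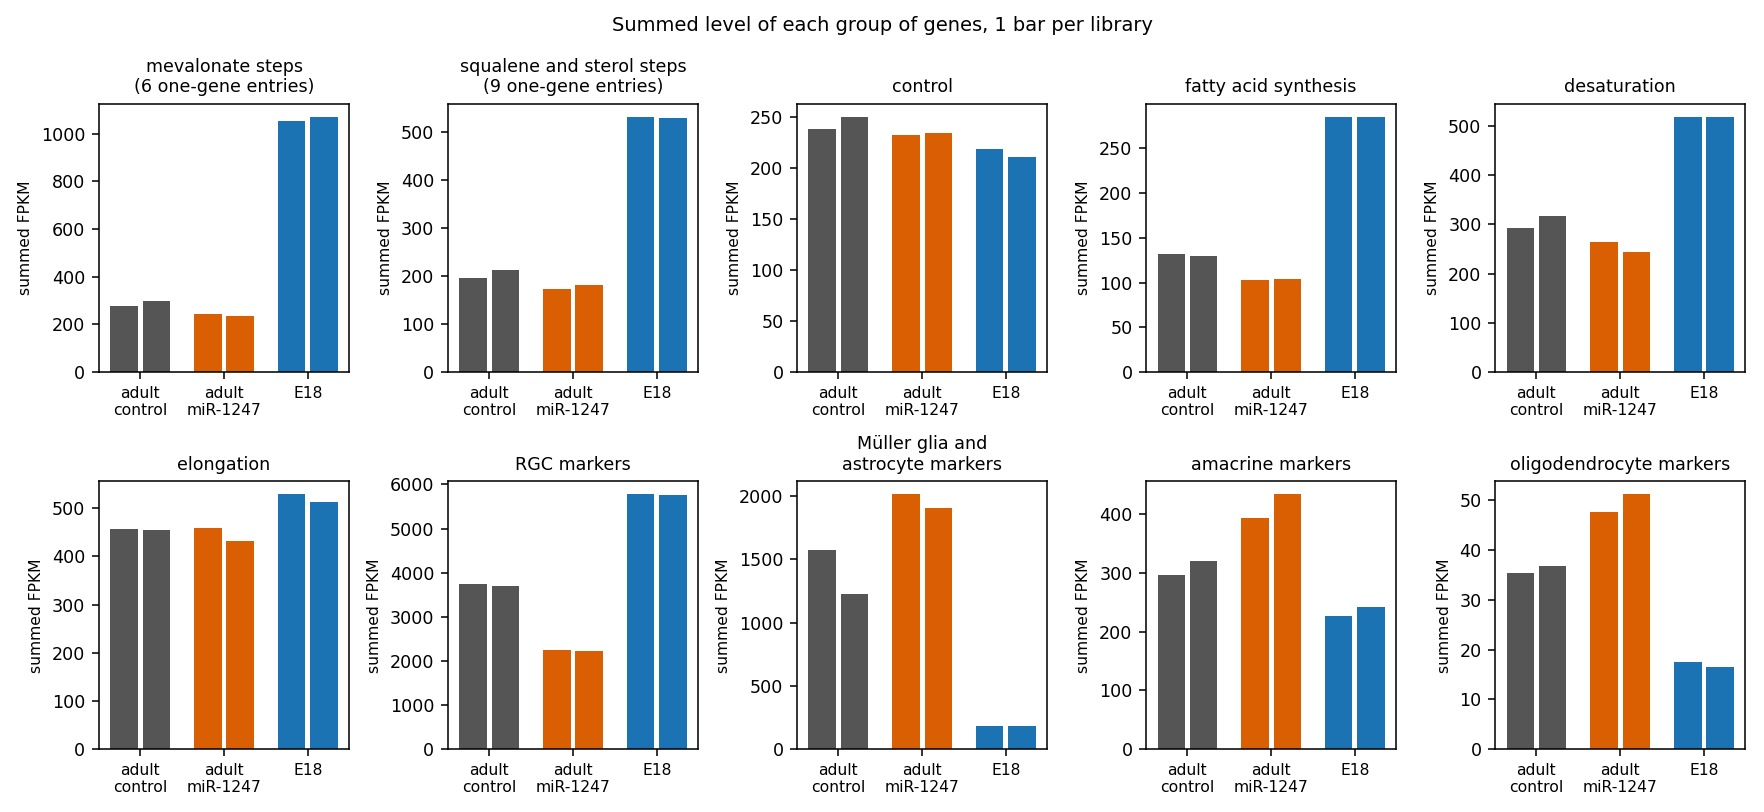
Summed FPKM in each library, 1 bar for each library and a colour for each group, every axis starting at 0 with its own scale. Panels show the members of each step with an entry of their own (6 mevalonate, 9 sterol) and 4 marker lists. The bars of the mevalonate, sterol, fatty acid synthesis and desaturation steps are higher in both E18 libraries than in all 4 adult libraries, the control genes stay at 211 to 250 FPKM, and the markers of glia are lowest at E18, at 182 and 181 FPKM.

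Most genes of pathway control went the other way, whereas Srebf2 rose. Of 6 members 4 fell, 1 rose and Scap was not called, with a median of -0.34. Insig2, which retains SCAP in the endoplasmic reticulum, was at 37.4 and 35.1 FPKM in control, 40.9 and 42.9 in miR-1247 and 13.9 and 12.004 at E18. The E18 values lay below all adult values, at 0.357 of the control mean (-1.42 ± 0.10, adjusted p = 2.72e-05 in limma). Insig1, which has the same function and is itself a target of SREBP, was at 82.5 and 88.2 FPKM in control and 72.7 and 72.4 at E18, a small fall (-0.23 ± 0.06, adjusted p = 0.0156 in limma). That call was lost with no variance trend and without control replicate 2, E18 replicate 1 or E18 replicate 2. Insig1 thus stood at 2.20 and 2.52 times the FPKM of Insig2 in control libraries and at 5.23 and 6.03 times at E18.

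Srebf1, which encodes SREBP1, was at 10.4 and 10.8 FPKM in control and 6.03 and 5.66 at E18 (-0.76 ± 0.13, adjusted p = 0.00162 in limma). Srebf2, which encodes SREBP2, was at 65.7 and 72.3 FPKM in control and 90.7 and 88.6 at E18 (0.37 ± 0.07, adjusted p = 0.00231 in limma). In each of these 2 genes the E18 and control values were apart, in opposite directions. The FPKM of Srebf2 was 6.31 and 6.70 times that of Srebf1 in control and 15.03 and 15.7 times at E18. Scap was at 23.6 and 21.9 FPKM in control and 19.9 and 19.1 at E18, and the difference (-0.21 ± 0.09) had an adjusted p of 0.0836 in limma. It was called lower under all 4 other scalings. Stard4, a carrier of cholesterol between membranes, fell by 0.45, a call lost without control replicate 2 or E18 replicate 2.

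**Figure D4:**
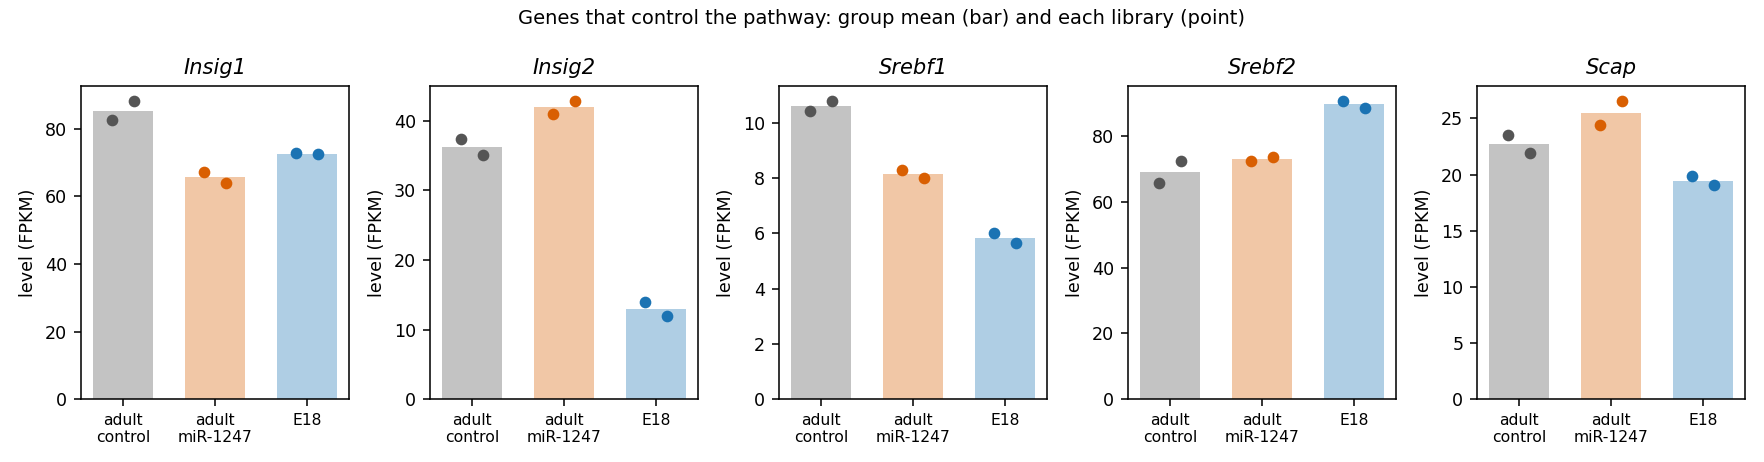
FPKM of Insig1, Insig2, Srebf1, Srebf2 and Scap, with a bar for the mean of each group and a point for each of its 2 libraries, every axis starting at 0. Insig2 is at 12.004 and 13.9 FPKM at E18 and 35.1 to 42.9 in the adult libraries, while Srebf2 is at 88.6 and 90.7 at E18 and 65.7 to 73.5 in the adult libraries.

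Fatty acid synthesis draws on cytosolic acetyl-CoA made by Acly, which Acaca carboxylates and Fasn builds into palmitate. All 3 rose. Acaca was at 5.86 and 5.59 FPKM in control and 23.1 and 18.5 at E18, 3.64-fold higher (1.69 ± 0.15, adjusted p = 8.46e-05 in limma). Fasn was at 53.1 and 52.5 FPKM in control and 130.0 and 129 at E18, 2.45-fold higher (1.28 ± 0.06, adjusted p = 3.86e-06 in limma). Acly was at 73.3 and 71.9 FPKM in control and 132 and 137 at E18 (0.88 ± 0.06). The groups lay apart in all 3, and Acaca was the lowest in level at both ages.

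The desaturases put double bonds into fatty acids, Scd1 and Scd2 into newly made saturated chains and Fads1 and Fads2 into polyunsaturated chains. All 4 rose, with a median of 0.77. Fads1 was at 47.1 and 49.7 FPKM in control and 106 and 114 at E18 (1.17 ± 0.11). Scd2, the form best known from brain, was at 175 and 185 FPKM in control and 272 and 268 at E18 (0.58 ± 0.05), and Fads2 and Scd1 rose by 0.87 and 0.67. Scd2 was the main form at both ages, at 12.5 to 15.3 times the FPKM of Scd1 in control and 13.1 and 12.4 times at E18. The locus of Scd2 as listed spans Scd3 on the same strand, which has an entry of its own with a mean of 2.11 FPKM in control.

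Elongation was divided. Of 9 members 4 rose, 3 fell and 2 were not called, with a median of 0.02. Elovl2, an elongase of polyunsaturated chains, was at 4.55 and 4.14 FPKM in control and 11.6 and 13.3 at E18 (1.33 ± 0.14, adjusted p = 0.000207 in limma). Elovl5, which acts on shorter polyunsaturated chains, was at 25.2 and 24.7 FPKM in control and 14.7 and 12.4 at E18 (-0.84 ± 0.11, adjusted p = 0.00059 in limma). The control libraries held 5.55 and 5.96 times as much Elovl5 as Elovl2 in FPKM, and the E18 libraries 1.27 and 0.936 times. Elovl6, which extends palmitate, fell by 0.52, and Hacd3, a dehydratase of the elongation cycle, by 0.41.

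Elovl1, an elongase of saturated chains, was at 1.60 and 0.533 FPKM in control and 10.7 and 6.14 at E18 (2.20 ± 0.42, adjusted p = 0.00319 in limma). Hacd1, another dehydratase, was at 4.48 and 0.741 FPKM in control and 13.1 and 14.3 at E18 (2.25 ± 0.50, adjusted p = 0.0062 in limma). These 2 had the widest errors of the genes that rose. The call of Hacd1 was lost without E18 replicate 2. Tecr, the reductase that ends the cycle, was the most abundant of the 9 at 253 and 262 FPKM in control and rose by 0.41. Elovl4, an elongase of very long chains, was at 40.5 and 41.4 FPKM in control and 42.6 and 40.4 at E18 (0.02 ± 0.07), with no difference beyond the spread, and its sign changed with the scaling. For Hacd2, at 2.50 and 5.90 FPKM in control and 2.23 and 1.79 at E18 (-0.71 ± 0.32, adjusted p = 0.0886 in limma), a call was made only under quantile normalization and without control replicate 1.

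Other genes of the same metabolism are set beside all rows tested, of which 40.2% rose and 29.8% fell. Of 24 further synthesis genes tested 6 rose and 7 fell (median -0.04). Aacs, which activates acetoacetate for synthesis, rose by 1.49, Fads3 by 1.33 and Cyb5a, an electron donor for desaturases, by 1.24, and Cyb5r3, its reductase, fell by 1.27. Of 17 genes of SREBP processing and partner factors 6 rose and 5 fell. Nfya, a subunit of NF-Y, rose by 1.82, Paqr3 by 1.21 and Sp1, which binds GC boxes, by 0.74, whereas Nfyc, another NF-Y subunit, fell by 0.68 and Erlin1 by 0.67. The falls numbered 2 without either control library or E18 replicate 2, and the rises 3 without E18 replicate 2. Nfyc lost its call without any 1 library but E18 replicate 2, and Erlin1 without either control library or E18 replicate 2.

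The next lists, too, stand beside 40.2% of all rows that rose and 29.8% that fell. Of 19 genes of cholesterol uptake, efflux and turnover 10 fell and 5 rose (median -0.42). Apoe, the main lipid carrier of the nervous system, fell from 42.6 and 45.1 to 4.09 and 2.46 FPKM (-3.42 ± 0.21). Mylip, a ubiquitin ligase, fell by 2.34, and Cyp46a1, the neuronal enzyme that turns cholesterol into an exportable form, by 2.30. Gramd1a, a sterol carrier at membrane contacts, rose by 2.36 and Scarb1, a lipoprotein receptor, by 1.56. Of 16 genes of fatty acid oxidation 11 rose and 1 fell (median 0.77), the fall being lost without control replicate 1 or E18 replicate 1. Etfdh rose by 2.13, Etfa by 1.90, Cpt1a, which admits fatty acids to mitochondria, by 2.08, Eci2 by 1.75 and Eci1 by 1.30.

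Markers of other cells moved between these groups too. Of 12 markers of Müller glia and astrocytes 6 were measured, 5 fell at E18 and Vim rose, and their summed FPKM was 1574.5 and 1229.5 in control and 182 and 181 at E18. Apoe is one of them. Rlbp1, Slc1a3, Gfap, Aqp4, Sox9 and S100b were not analysed here. Of the oligodendrocyte markers Mbp and Cnp were measured, both fell, and their sum was 35.4 and 36.8 FPKM in control and 17.4 and 16.5 at E18. Of 9 amacrine markers 4 were measured, of which Gad2, Slc6a9 and Npy fell and Pax6, which RGCs also express, rose. Gad2 was at 81.2 and 82.5 FPKM in control and 0.682 and 1.03 at E18. The 2 photoreceptor markers tested, Rom1 (-2.90) and Reep6 (-2.18), fell as well. Of 3 bipolar markers tested Prkca (-1.15) and Car8 (-1.54) fell, and the third had a positive difference (0.82) that was not called. Of 10 progenitor markers only Hes6 and Dapl1 were measured, and both rose. In bulk libraries fewer cells of a type and less RNA per cell cannot be told apart, and the part of these cells in the members' changes was not tested.

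The second comparison sets adult RGCs with the miR-1247-5p mimic beside adult controls. The mature microRNA, from the RefSeq table (GRCm38.p6), is shown with its seed, bases 2 to 8, in capitals.
miR-1247-5p: aCCCGUCCcguucguccccgga
Changes here were small and mostly downward. Of the 40 genes 11 fell (6.22% of all rows tested were called lower) and Ebp rose (3.53% called higher), 12 calls in all beside 9.75% of rows. Among the 37 members with an entry of their own 9 fell and 1 rose. No called change reached 2-fold in either direction, which 0.441% of rows did upward and 0.761% downward. Both miR-1247 libraries lay below both control libraries for 22 genes (32.4% of all rows) and above them for 6 (25.3%). The median was -0.26 over the 40 genes and -0.03 over all rows.

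Among the mevalonate enzymes, Hmgcs1 and the shared entry of Fdps fell. The Fdps entry was at 105 and 103 FPKM in control and 65.8 and 66.2 with miR-1247 (-0.65 ± 0.05, adjusted p = 0.00243 in limma), 0.635 of the control mean. It was the one member whose call held under all 17 alternatives, and the value includes Rusc1. Hmgcs1, at 149 and 158 FPKM in control and 123 and 116 with miR-1247, fell to 0.778 of control (-0.36 ± 0.05, adjusted p = 0.0143 in limma). Mvk, Mvd, Acat2 and Idi1 had negative differences, of -0.42, -0.34, -0.28 and -0.29, and Pmvk a positive one of 0.15, none of them called.

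Sterol enzymes that fell were Cyp51, Nsdhl and the shared entry of Msmo1. Cyp51 was at 19.1 and 20.1 FPKM in control and 12.9 and 14.3 with miR-1247 (-0.50 ± 0.09, adjusted p = 0.0252 in limma). Nsdhl was at 20.9 and 23.7 FPKM in control and 15.9 in both miR-1247 libraries (-0.46 ± 0.09, adjusted p = 0.0341 in limma). The Msmo1 entry changed from 599 and 592 to 519 and 512 FPKM (-0.21 ± 0.03). Ebp, the only rise, was at 4.13 and 6.61 FPKM in control and 10.0 and 10.6 with miR-1247 (0.86 ± 0.20, adjusted p = 0.0444 in limma), and it lost its call under 11 of 17 alternatives. Lss, at 17.4 and 18.3 FPKM in control and 13.1 and 13.9 with miR-1247 (-0.38 ± 0.10), lay just outside the threshold at an adjusted p of 0.0561 in limma. For each of these genes the groups did not overlap.

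In the control genes only Insig1 was called. It was at 82.5 and 88.2 FPKM in control and 67.3 and 64.0 with miR-1247 (-0.37 ± 0.06, adjusted p = 0.022 in limma). Insig2, at 40.9 and 42.9 FPKM with miR-1247, differed from control by 0.20, so that the FPKM of Insig1 was 1.64 and 1.49 times that of Insig2 with miR-1247 and 2.20 and 2.52 times in control. Srebf1 was at 8.29 and 8.001 FPKM with miR-1247 (-0.34, adjusted p = 0.135 in limma), Srebf2 at 72.3 and 73.5 (0.08) and Scap at 24.4 and 26.6 (0.16), none called.

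Acly, Fasn, Scd2, Fads1 and Elovl5 fell among the fatty acid genes. Acly was at 57.6 and 57.8 FPKM with miR-1247, beside 73.3 and 71.9 in control (-0.33 ± 0.06, adjusted p = 0.0218 in limma). Fasn was at 41.3 and 41.6 FPKM, beside 53.1 and 52.5 (-0.34 ± 0.06, adjusted p = 0.0207 in limma). Scd2 was at 151 and 143 FPKM, beside 175 and 185 (-0.29 ± 0.05). The libraries of a group were closer to each other than to those of the other group in all 3. Fads1 was at 38.0 and 30.3 FPKM, beside 47.1 and 49.7 (-0.50 ± 0.11, adjusted p = 0.0418 in limma), while its partner Fads2 was at 66.0 and 61.9, beside 60.6 and 67.3, and overlapped control.

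Elovl5 had the largest called fall, from 25.2 and 24.7 FPKM in control to 13.6 and 13.1 with miR-1247 (-0.85 ± 0.11, adjusted p = 0.0117 in limma). Its level with miR-1247 was thus next to that of E18, at 14.7 and 12.4 FPKM. Elovl5 lost its call without each adult library in turn and held it otherwise. Elovl1 had the largest positive difference (1.04 ± 0.42, adjusted p = 0.164 in limma), with 4.70 and 1.95 FPKM with miR-1247, and it was not called. The remaining elongation genes had differences from -0.43 for Hacd2 to 0.47 for Hacd1.

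Few of these calls withstood the loss of a library. The number of members that fell, 11 in the full data, was 2 without control replicate 1, miR-1247 replicate 1, E18 replicate 1 or E18 replicate 2, and 1 without control replicate 2 or miR-1247 replicate 2. Over all rows the same omissions left 86 to 165 falls of 621.

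Of the other synthesis genes 7 of 24 fell and 1 rose, beside 6.22% of all rows called lower and 3.53% higher. Mecr, of mitochondrial fatty acid synthesis, was at 7.46 and 8.79 FPKM in control and 1.499 and 3.37 with miR-1247 (-1.46 ± 0.28), and Slc25a1, which exports citrate for synthesis, was at 26.2 and 23.9 in control and 13.9 and 10.8 with miR-1247 (-0.97 ± 0.13). Ggps1 fell by 0.58, Aacs by 0.49 and Cyb5b by 0.48. None of the 17 SREBP processing genes was called in limma, with 4 at an unadjusted p under 0.05. Of the uptake and efflux genes Stard3 fell by 0.78, and of the oxidation genes Acadl fell by 1.18 and Slc25a20 by 0.98. With each of the 6 libraries left out in turn, falls in limma numbered 0 to 2 among the synthesis genes, 0 among the uptake genes and 0 or 1 among the oxidation genes.

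RGC markers and mitochondrial transcripts moved in the same comparison. All 17 RGC markers fell (median -0.80), and 13 to 17 of them were called lower under each alternative. The summed FPKM of the glial markers was 2016.7 and 1907.8 with miR-1247, beside 1574.5 and 1229.5 in control. Of these 6 markers Dkk3 alone was called (0.35), the number called being 2 without control replicate 1 and 0 without any other library, and Glul, at 795 and 632 FPKM with miR-1247 and 463 and 122 in control, was not. Without Glul the sums were 1221.2 and 1276.2 with miR-1247 and 1111 and 1107.7 in control. The sum of 4 amacrine markers was 394 and 434 beside 297 and 321. That of Mbp and Cnp was 47.7 and 51.2 beside 35.4 and 36.8. Photoreceptor markers went the other way, with a sum over 3 of 26.9 and 24.3 beside 46.8 and 45.6. Of the 2 tested, 1 was called lower. With totals rescaled without the mitochondrial rows 10 members were lower and 1 higher. Whether the share of RGCs in the libraries has a part in the members' falls was not tested.

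The comparisons of E18 and of miR-1247 with control share the control libraries, so their values are given side by side only. Of the 11 members that fell with miR-1247, Hmgcs1 differed by 2.23 at E18 and -0.36 with miR-1247. In the same order the shared entry of Fdps differed by 1.22 and -0.65, Cyp51 by 2.24 and -0.50 and Fasn by 1.28 and -0.34. Insig1 (-0.23 and -0.37) and Elovl5 (-0.84 and -0.85) were negative in both.

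Set directly against miR-1247 libraries, E18 libraries had 29 members higher (41.5% of all rows called higher) and 6 lower (28.4%), together 35 of 40 beside 69.9% of rows, with a median of 1.06 beside 0.19 over all rows. At least 2-fold calls were 22 upward (21.1% of rows) and 1 downward (14.1%), and the groups lay apart upward for 32 members (50.4%) and downward for 7 (35.9%). Cyp51 was 7.11-fold and Hmgcs1 6.07-fold higher in mean FPKM at E18 than with miR-1247 (2.74 ± 0.09 and 2.59 ± 0.05). Elovl5 (0.01 ± 0.11), Insig1 (0.14 ± 0.06), Ebp (0.38 ± 0.20), Pmvk (0.35 ± 0.15) and Hacd2 (-0.28 ± 0.32) were not called. Insig2 was again the strongest fall (-1.62 ± 0.10, adjusted p = 1.49e-05 in limma). Without miR-1247 replicate 1 the members called lower were 4, and without miR-1247 replicate 2 or E18 replicate 2 they were 3.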

How the data were processed

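Poly-A RNA libraries (TruSeq kit, paired reads of 100 bases, RNA integrity number of at least 9, per the labels' protocols) were mapped by the authors to mm39 with HISAT2. Per the submitters' processing notes, FPKM values deposited by the authors came from Cufflinks and Cuffdiff, with no versions named. The deposited log2 columns, ratios of group means, were within 0.003 of those recomputed from FPKM and were not used further. A constant of 1e-05 in the deposited FPKM was taken off. Different entries of 1 gene name were summed (Insig2, Fads1 and Hacd1 among the members), and names with the same entries were joined, which left 10162 rows from 11104 entries. The table's total FPKM per library is no read depth, which is unknown, so no counting interval is given.

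Group means of the 3 groups were fitted over all 6 libraries to log2(FPKM + 1) by limma 3.58.1 (R 4.3.3), its variances following the mean level. The pseudocount was 1, rows with a mean of at least 1 FPKM were kept (9987), and tests are two-sided, adjusted by Benjamini-Hochberg and called at 0.05. Fold changes on this scale understate changes of low genes. The script was tested on simulated data for E18 over control, with 9990 rows of which 200 were changed. It recovered 91% of 2-fold and 99% of 4-fold changes, and 9.09% of its calls were false. In the real comparison 70.1% of rows were called, so these rates cannot be carried over to it.

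The members and lists were chosen with earlier results of these data known. All members are named. Values per library are given for members called at 2-fold or more in E18 over control, for those called with miR-1247 and for Insig1, Insig2, Srebf1, Srebf2 and Scap. From each further list at most the 5 called genes with the largest change are named. Some items that this rule would name are not reported here. Lists are described by counts and medians. Same-group libraries correlated at r = 0.98 to 0.985 across rows, control with miR-1247 libraries at 0.96 to 0.962, and adult with E18 ones between 0.692 and 0.701. Promoters were read from GRCm39 with GENCODE M39 starts. Alternatives were another pseudocount, filters, scalings, no variance trend, only the groups compared, entries not summed, the replicate number as a block and leaving out each library. Python 3.11.15, pandas 2.3.3, NumPy 2.4.6 and Matplotlib 3.10.9 were used.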

Additional observations from a re-analysis of the deposited data

How the results depend on the processing

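Of the 37 calls in E18 over control 33 held under all 17 alternatives, of 12 in miR-1247 over control 1, and of 35 in E18 over miR-1247 28. Without 1 library in turn, members higher and lower ranged over 28 to 30 and 5 to 8 in E18 over control, 0 to 1 and 1 to 2 in miR-1247 over control (1 and 11 in the full data), and 26 to 30 and 3 to 6 in E18 over miR-1247. In miR-1247 over control no member was higher (0) with a pseudocount of 0.1, equal totals, no variance trend, only the 2 groups compared or entries not summed, and 2 were lower under the third and the fourth of these. The cause was not tested. Calls over all rows in that comparison, 353 higher and 621 lower, were 107 and 236 when variances followed no trend, 125 and 222 when only the 2 groups entered, 136 and 776 with equal totals, 460 and 527 with median ratio scaling, 418 and 532 with quantile normalization and 467 and 518 without mitochondrial rows. In E18 over control they were 4019 and 2979, and 3400 and 3427 with median ratio scaling, 3618 and 3103 with equal totals, 3509 and 3361 with quantile normalization and 3517 and 3359 without mitochondrial rows.

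The replicate number as a block gave 30 higher and 7 lower members in E18 over control, 1 and 9 in miR-1247 over control and 29 and 5 in E18 over miR-1247. Over all rows it gave 206 higher and 378 lower with miR-1247. Same-numbered libraries did not deviate together (r = -0.00812, -0.00175 and 0.00353), so the numbers are taken as names only.

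Signs of 25 member values changed, none of them called either way. In E18 over control Elovl4 was -0.13 with median ratio scaling, -0.0599 with equal totals, -0.0612 with quantile normalization, -0.11 without mitochondrial rows and -0.0189 to 0.055 without 1 library. In miR-1247 over control Tecr was 0.0071 with median ratio scaling and 0.0088 without mitochondrial rows, and with equal totals Srebf2 was -0.0215 and Fads2 -0.10. Without 1 library in turn, Tecr ranged from -0.0895 to 0.031, Fads2 from -0.0733 to 0.0752, Pmvk from -0.0217 to 0.33, Idi1 from -0.62 to 0.0386, Sc5d from -0.24 to 0.0243, Stard4 from -0.20 to 0.0022, Hacd1 from -0.36 to 1.30 and Hacd2 from -0.92 to 0.0585. The control libraries set both ends of these ranges for all but Tecr, whose ends came from the miR-1247 libraries. In E18 over miR-1247 Insig1 was -0.0485 with median ratio scaling and -0.0228 without mitochondrial rows. Elovl5 was -0.17 with median ratio scaling, -0.15 with quantile normalization, -0.14 without mitochondrial rows and -0.0949 to 0.12 without 1 library.

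With 2 libraries in a group and unknown depth, differences of low genes such as Elovl1, Hacd1 and Hacd2 are the least certain.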
